A study of Mus musculus with 9 samples.

Results

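The BBSome is a coat-like protein complex of cilia, and the mRNAs of 7 of its subunits (Bbs1, Bbs2, Bbs4, Bbs5, Bbs7, Bbs9 and Ttc8) were examined together with those of Arl6, the GTPase that brings the complex to membranes, and of Bbs10 and Bbs12, the chaperonin-like proteins that help to assemble it. These 10 genes were chosen by name, through the GENCODE M21 symbols of the Ensembl gene IDs, and make up 10 of the 23074 rows of the count table. All 10 passed the filter on low counts and are among the 15613 genes tested. RNA-seq was performed on decapsulated testes of 5 wild type (WT) and 4 Rfx2-/- mice at 29 to 30 days of age (P30), with 1 library per mouse. All animals had a mixed C57BL/6, 129/Sv and FVB/N background. The Rfx2-/- allele lacks exon 7, removed by a universally expressed ACTB-Cre transgene, and by the study's methods the mixed background line kept its neomycin selection cassette. RFX2 is a transcription factor that binds the X-box motif, and the comparison asked which testis mRNAs depend on it. The tissue is a mixture of germ cells and somatic cells, in which fewer cells of a type and less RNA per cell cannot be told apart.

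The BBSome carries membrane proteins, among them receptors, into and out of cilia together with the intraflagellar transport (IFT) trains. BBS2, BBS7 and BBS9 form the core on which the other subunits assemble, and their assembly requires BBS10, BBS12 and MKKS, which act with the general chaperonin CCT. Mutations in these genes cause Bardet-Biedl syndrome in humans, a disease of cilia with obesity and loss of photoreceptors, and male mice that lack a BBSome subunit form no sperm flagella.

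X-boxes are the sites that RFX proteins bind, so the stretch from 250 bases before to 50 bases after each RefSeq start site (GRCm38.p6) was read for the pattern GTNNCC, followed after 3 bases by GNAAC, on both strands. Because the pattern is nearly palindromic, a match on one strand can overlap a match on the other, and such a pair was counted once per promoter. All 10 genes were found in the promoter table, Arl6 with 2 start sites. Bbs7, Bbs4 and Bbs1 held the pattern with all 8 fixed letters in place, 3 of 10 genes, against 2.17% of the 32851 promoters in the table and 2.49% of its 27025 genes. With at most 1 of the 8 letters changed, Bbs10 was added, 4 of 10 genes against 20.7% of all genes. The shorter sequence GTTGCC, which can form the first part of the pattern and lies inside the longer matches of Bbs7 and Bbs1, was present in Bbs1, Bbs5 and Bbs7, against 14.1% of all genes. The other 6 genes, among them Bbs2, Bbs9 and Ttc8, did not hold the pattern in this window even with 1 letter changed. A match describes letters and is not evidence of binding. The 3 full matches are printed because they show how different the sites are among genes of the same complex, with the match in capitals, in the direction of transcription and from the minus strand of the reference. On this strand the letters of Bbs7 and Bbs4 fit the pattern as printed, whereas the stretch of Bbs1 has 1 letter changed as printed and holds all 8 letters when read on the opposite strand, as GTCGCCTTGGCAAC. For Bbs7 162 bases are shown (chr3:36613478-36613639), which end at the outermost start of the gene in GENCODE M21 and lie before the RefSeq start, with the match at positions -121 to -108, and for Bbs4 (chr9:59353464-59353493) and Bbs1 (chr19:4906605-4906634) the 30 bases around matches at positions 24 to 37 and 2 to 15, counted from 1 at the first base of the RefSeq transcript, with negative numbers before it.
Bbs7: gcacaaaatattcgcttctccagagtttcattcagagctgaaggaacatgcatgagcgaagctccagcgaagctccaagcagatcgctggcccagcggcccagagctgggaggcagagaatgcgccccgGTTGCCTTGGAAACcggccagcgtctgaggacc
Bbs4: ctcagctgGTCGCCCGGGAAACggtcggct
Bbs1: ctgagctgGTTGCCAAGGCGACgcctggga

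**Figure D1:**
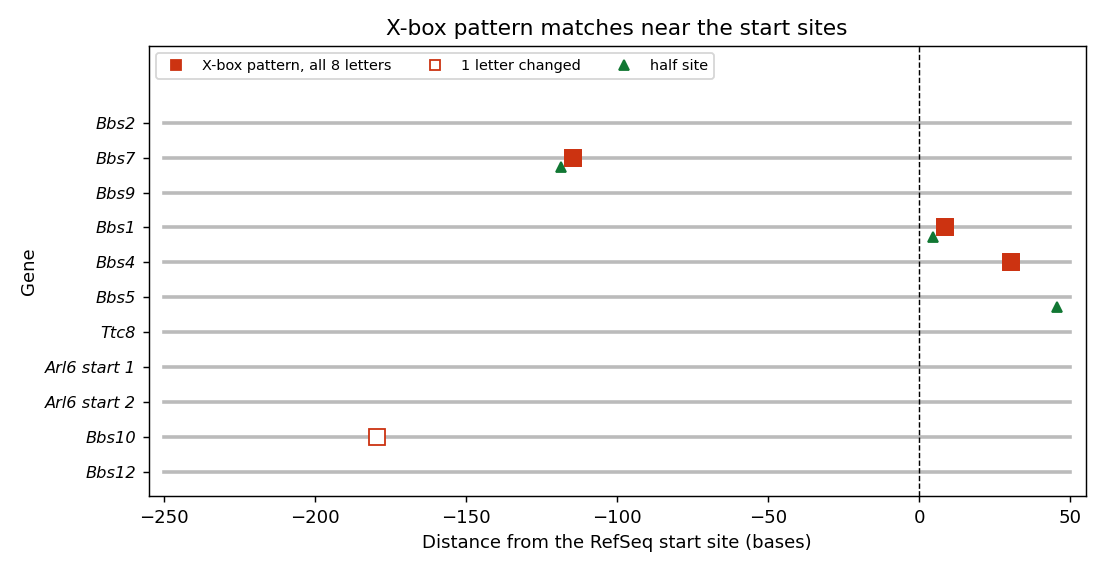
Matches to the X-box pattern in the promoters of the 10 genes (rows; 2 start sites for Arl6), placed by distance from the RefSeq start site in bases, with the start site as a dashed line. Filled squares hold all 8 letters, the open square has 1 letter changed, and triangles mark GTTGCC. The match of Bbs7 lies before the start site, and those of Bbs1 and Bbs4 lie just after it.

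The study's supplementary list of genes with an RFX2 promoter peak at P21 (chromatin immunoprecipitation in other animals) held 8 of the 10 genes, all but Bbs2 and Bbs10. Of the 953 listed genes that were tested here, 22.8% were lower and 2.83% were higher in Rfx2-/- testis at P30 (adjusted p at or under 0.05, edgeR quasi-likelihood test). Among the genes of the complex and its helpers, 3 of the 8 with a peak were lower (Bbs7, Bbs9 and Ttc8), and so was Bbs2, which is without one. Only 2 members are without a peak, so these counts cannot show whether a peak goes with a decrease. Bbs1, which has a peak, was not called by edgeR but was called lower by DESeq2 and limma voom. Of the 3 genes with a full X-box match, Bbs7 passed the test and Bbs1 and Bbs4 did not.

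In WT testis the levels of the 10 mRNAs spanned a wide range. Levels are compared here per length, as RPKM (CPM, the counts scaled by library size, divided by the length of the merged exons in kb, mean ± SD over the 5 WT mice). Bbs5, a subunit that binds phosphoinositides, was the highest at 49.3 ± 8.87 RPKM, followed by Bbs7 at 27.8 ± 1.78 and Bbs9 at 24.7 ± 2.08. These ranges did not overlap. Bbs2 at 16.9 ± 1.58 RPKM and Arl6 at 16.8 ± 1.11 RPKM were not separated. Bbs4 at 12.5 ± 1.04, Bbs1 at 10.4 ± 0.82, Bbs10 at 9.05 ± 0.73 and Ttc8 at 7.78 ± 1.41 RPKM followed, each overlapping the range of the next. Bbs12 was the lowest at 3.15 ± 0.39 RPKM, below all values of Ttc8. By mean level in Rfx2-/- testis, Bbs5 and Bbs12 kept the first and last place. Arl6 stood next to Bbs5, and Bbs7 stood below Arl6 and Bbs9. Of these places only the first was without overlap, with Bbs5 at 37.6 to 64.8 RPKM and Arl6 at 17.2 to 36.3 RPKM. Bbs9 (12.5 to 19.5 RPKM) overlapped both Arl6 and Bbs7 (10.9 to 19.2 RPKM), and Bbs7 was above Bbs9 in replicates 2 and 4. Bbs12 (3.16 to 5.05 RPKM) overlapped Ttc8 (4.41 to 5.04 RPKM).

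Rfx2 mRNA, counted over all exons including those outside the deletion, was 549 ± 54.4 CPM in WT (counts scaled by the library total and its TMM factor, mean ± SD, n = 5) and 146 ± 59.7 CPM in Rfx2-/- (n = 4), a log2 fold change of -1.91 (edgeR adjusted p = 0.000781), with all knockout libraries below all WT libraries. Rfx2-/- replicate 1 was sequenced to a total of 28800855 counts and the remaining 8 libraries to between 13574764 and 15193330. The genes of interest had 93 to 2131 counts per library, far above the floor of 3 counts (0.0995 to 0.234 CPM). Rfx2-/- replicate 2 stood apart from its group, with a biological coefficient of variation among knockout libraries of 0.31 with it and 0.188 without it, against 0.139 in WT. The defining markers of Sertoli, Leydig, peritubular and germ cells were all detected in every library. Of the 7 Sertoli cell markers 1 was called higher, with a median log2 fold change of 0.24. None of the Leydig cell (median 0.19), peritubular cell (-0.01) and macrophage markers (0.42) was called. Of the 8 elongating spermatid markers (among them Prm1, Prm2, Tnp1 and Akap4) 5 fell and all 8 had a fold change below 0, with a median log2 fold change of -0.80. All 8 were lower at an unadjusted p under 0.05. Their summed level was 7730 to 16691 CPM in WT and 6003 to 9316 CPM in Rfx2-/-. By the study, Rfx2-/- spermatids stop before they elongate, so this sum does not measure elongating cells in Rfx2-/- testis. The study also states that Tnp1 and Tnp2 mRNAs are not reduced, whereas Tnp1 was among the 5 that fell here. The limits differ, since the study counted lower genes at a p under 0.01 and over 2-fold, and the call here has no fold limit. At an adjusted p of 0.01 and over 2-fold, none of the 8 markers was lower by edgeR, against 3.68% of all genes. By this limit 3 were lower with DESeq2 and 4 with limma voom. The 8 meiotic prophase markers all had a fold change above 0, with a median of 0.62. Of them 1 was called higher (Sycp2), and 5 were higher at an unadjusted p under 0.05. Without Rfx2-/- replicate 2 the median was 0.26, with Sycp2 still called. With limma voom the median was 0.25 and none of these markers was called. Their sum was 1178 to 1504 CPM in WT, 1534 to 1875 CPM in Rfx2-/- replicates 1, 3 and 4 and 3061 CPM in replicate 2. Of the 9 round spermatid markers 1 fell (Dpy19l2), with a median of 0.21, which was 0.10 without Rfx2-/- replicate 2. Of all genes, 7.31% were called lower and 3.48% higher. At an unadjusted p under 0.05 these shares were 13.7% and 13.9%.

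Of the 10 genes 4 fell in Rfx2-/- testis, namely the core subunits Bbs2, Bbs7 and Bbs9 and the peripheral subunit Ttc8 (adjusted p at or under 0.05, edgeR quasi-likelihood test over 15613 genes). Among all genes tested, 7.31% were lower by the same rule. None of the 10 was higher, against 3.48% of all genes. At an unadjusted p under 0.05, 5 were lower, against 13.7% of all genes, and 1, Arl6, was higher, against 13.9%. DESeq2 and limma voom each called 5 lower (8.94% and 11.5% of all genes in these fits) and none higher (5.23% and 6.08%). With scaling by total counts instead of TMM factors 2 of the 10 were lower (Bbs7 and Ttc8, against 6.14% of all genes) and 1 higher (Arl6, against 7.54%), and the split of all calls moved from 1142 lower and 544 higher to 959 lower and 1178 higher, with the median log2 fold change of all genes moving from 0.03 to 0.16. None passed an adjusted p of 0.01 together with a change over 2-fold, by edgeR or by DESeq2, where 3.68% of all genes were lower and 0.826% higher by edgeR, and limma voom called 1, Bbs7, which lies at the fold limit. In 5 of the 10 (the 4 that fell and Bbs1) all 4 knockout libraries were below all 5 WT libraries, against 9.7% of all genes, and in none were they all above, against 6.16% of all genes. The median log2 fold change was -0.35 over the 10 genes, 8 of them below 0, and 0.03 over all genes tested.

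**Figure D2:**
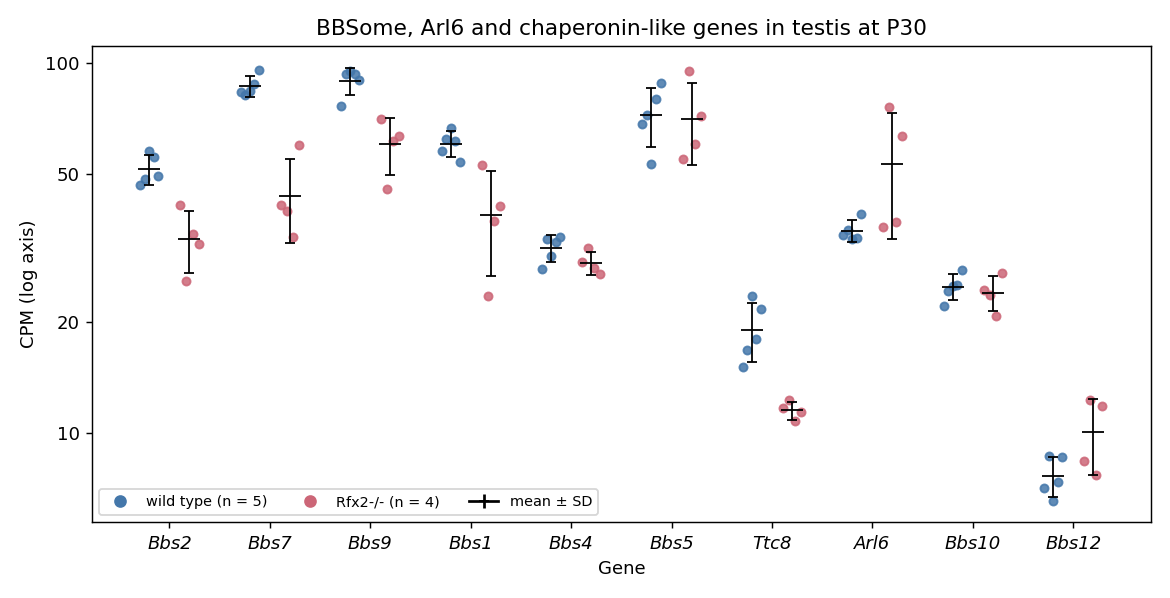
Level of each of the 10 mRNAs in CPM (log axis) in the 5 WT (blue) and 4 Rfx2-/- (red) libraries, with 1 dot per mouse and the mean ± SD in black. The groups are apart for Bbs2, Bbs7, Bbs9, Bbs1 and Ttc8, and 2 of the 4 knockout dots of Arl6, at 76.2 and 63.3 CPM, and of Bbs12, at 12.3 and 11.8 CPM, lie above all WT dots.

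Bbs7 (ENSMUSG00000037325, chr3:36573142-36613477, minus strand, GRCm38), a core subunit with a beta propeller, had the largest decrease of the 10. Its level was 83.5, 82.0, 84.1, 87.7 and 95.8 CPM in WT replicates 1 to 5 and 41.4, 39.8, 33.9 and 59.9 CPM in Rfx2-/- replicates 1 to 4. Every knockout library was well below the lowest WT library, and replicate 4 was the highest of them. This gave a log2 fold change of -0.98 (SE 0.167, 95% interval -1.35 to -0.62, edgeR adjusted p = 0.00202), so that 50.5% of the WT level remained. The call at an adjusted p of 0.05 held in all 16 other fits, 1 of them chosen after seeing the data, with a log2 fold change between -1.14 and -0.85.

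The other core subunits fell less far. Bbs2 (ENSMUSG00000031755, chr8:94067954-94098928, minus strand), which pairs with BBS7 in the core, was at 46.8, 48.4, 57.8, 55.8 and 49.5 CPM in WT and 41.3, 25.8, 34.5 and 32.5 CPM in Rfx2-/-. The groups were separate, with replicate 1 the knockout library nearest to WT. The log2 fold change was -0.62 (SE 0.152, edgeR adjusted p = 0.0201), or 64.8% of the WT level. Bbs9 (ENSMUSG00000035919, chr9:22475715-22888280, plus strand), a scaffold protein of the core, was at 76.5, 93.1, 95.1, 93.1 and 90.0 CPM in WT and 70.7, 45.6, 61.7 and 63.5 CPM in Rfx2-/-. WT replicate 1 was low for its group and Rfx2-/- replicate 1 high for its own, and the 2 groups came close without overlapping. The log2 fold change was -0.57 (SE 0.149, edgeR adjusted p = 0.0295), or 67.4% of the WT level. Bbs2 was called in 11 and Bbs9 in 9 of the 16 other fits. Without Rfx2-/- replicate 4, for example, the adjusted p was 0.0752 for Bbs2 and 0.0743 for Bbs9, and without Rfx2-/- replicate 2 it was 0.00924 and 0.0107.

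Ttc8 (ENSMUSG00000021013, chr12:98920574-98983238, plus strand) encodes BBS8, a subunit built of tetratricopeptide repeats. It was at 15.1, 16.8, 23.4, 18.0 and 21.6 CPM in WT and 11.7, 12.3, 10.8 and 11.4 CPM in Rfx2-/-. The knockout libraries were tightly grouped, with a coefficient of variation of 5.54% against 18.1% in WT, and all lay below WT. Its log2 fold change was -0.72 (SE 0.16, edgeR adjusted p = 0.0122), or 60.7% of the WT level, and the call held in 14 of the 16 other fits, the exceptions being without Rfx2-/- replicate 3 and without replicate 4 (adjusted p = 0.0515 and 0.0516).

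Bbs1 (ENSMUSG00000006464, chr19:4886878-4906628, minus strand), the subunit that binds ARL6, was at 57.9, 62.4, 66.6, 61.7 and 54.1 CPM in WT and 53.1, 23.5, 37.5 and 41.0 CPM in Rfx2-/-. All knockout values were below all WT values, but replicate 1 missed the WT range by a small margin and replicate 2 was by far the lowest. Bbs1 had a log2 fold change of -0.64 (SE 0.198, 95% interval -1.07 to -0.21), and the test was not passed (edgeR adjusted p = 0.0607). Without replicate 2 the log2 fold change was -0.46 and the adjusted p 0.0249, so that the estimate was smaller and the call was made. DESeq2 on all libraries also called the gene (adjusted p = 0.0237). Bbs1 has the longest exons of the 10 genes, 5.83 kb.

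Bbs4 and Bbs5 did not pass the test. Bbs4 (ENSMUSG00000025235, chr9:59321990-59353508, minus strand), a subunit that binds the centriolar satellite protein PCM1, was at 27.7, 33.4, 30.1, 32.8 and 34.0 CPM in WT and 28.9, 31.6, 27.8 and 26.9 CPM in Rfx2-/-. The ranges overlapped, and the log2 fold change was -0.13 (95% interval -0.40 to 0.13, edgeR adjusted p = 0.503). Of the exon bases of Bbs4 7.7% overlap exons of Adpgk on the opposite strand. Reads there were left out if counting ignored strand, which is not stated. Bbs5 (ENSMUSG00000063145, chr2:69647171-69667571, plus strand) was at 68.3, 72.5, 53.3, 79.7 and 88.0 CPM in WT and 55.1, 95.2, 60.5 and 71.8 CPM in Rfx2-/-. It varied as much within as between groups, with replicate 2 above and the other knockout libraries inside the WT range. The log2 fold change was -0.03 (95% interval -0.45 to 0.38, edgeR adjusted p = 0.923). The lower ends of these intervals bound the decrease at -0.40 for Bbs4 and -0.45 for Bbs5 on the log2 scale.

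The balance of the subunit mRNAs is given as a description without a test. The core mRNAs Bbs2, Bbs7 and Bbs9 summed to 63.1 to 72.0 RPKM in WT and 33.7 to 47.3 RPKM in Rfx2-/-, 60.0% of the WT mean. Bbs1, Bbs4, Bbs5 and Ttc8 summed to 69.3 to 91.5 RPKM in WT and 62.9 to 86.5 RPKM in Rfx2-/-, 88.7% of the WT mean. The core share of the 7 subunit mRNAs was 43.9% to 51.0% in WT and 42.4%, 28.1%, 38.3% and 39.9% in Rfx2-/- replicates 1 to 4. The knockout shares were all below the WT shares, closely so in replicate 1, and Bbs5, the highest mRNA, weighs most in the remainder.

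Arl6 (ENSMUSG00000022722, chr16:59612949-59639391, minus strand) had the highest log2 fold change of the 10 genes but did not pass the test. Its level was 34.3, 35.3, 33.5, 33.7 and 39.2 CPM in WT and 36.1, 76.2, 37.2 and 63.3 CPM in Rfx2-/-. Replicates 1 and 3 lay inside the narrow WT range and replicates 2 and 4 far above it. The log2 fold change was 0.59 (SE 0.213, 95% interval 0.13 to 1.06), with an unadjusted p of 0.0166 and an edgeR adjusted p of 0.0982, so the gene was not called. It was called without Rfx2-/- replicate 1 (adjusted p = 0.0235), without replicate 3 (0.0456) and under scaling by total counts (0.0411), and without replicate 2 the log2 fold change was 0.37 (adjusted p = 0.164). Of its exon bases 2.62% overlap a noncoding transcript on the opposite strand.

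The chaperonin-like genes were not called. Bbs12 (ENSMUSG00000051444, chr3:37312554-37321453, plus strand) was at 7.10, 8.66, 6.58, 7.37 and 8.65 CPM in WT and 8.39, 12.3, 7.69 and 11.8 CPM in Rfx2-/-. As for Arl6, replicates 2 and 4 were above all WT libraries and replicates 1 and 3 inside their range (log2 fold change 0.39, 95% interval -0.02 to 0.79, edgeR adjusted p = 0.196). The meiotic prophase markers were highest in the same 2 libraries, at 3061 and 1875 CPM in sum against 1667 and 1534 CPM in replicates 1 and 3, and their part in these values was not tested. Bbs10 (ENSMUSG00000035759, chr10:111298679-111301727, plus strand) was at 22.1, 24.2, 25.0, 25.1 and 27.7 CPM in WT and 24.4, 23.6, 20.7 and 27.1 CPM in Rfx2-/-. The groups overlapped, with a log2 fold change of -0.05 (95% interval -0.34 to 0.23, edgeR adjusted p = 0.825). Of the exon bases of Bbs12 1.31% overlap Cetn4 on the opposite strand. A noncoding transcript on the same strand shares 8900 bases of its span and also 1.31% of its exon bases. Bbs10 overlaps no other gene.

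**Figure D3:**
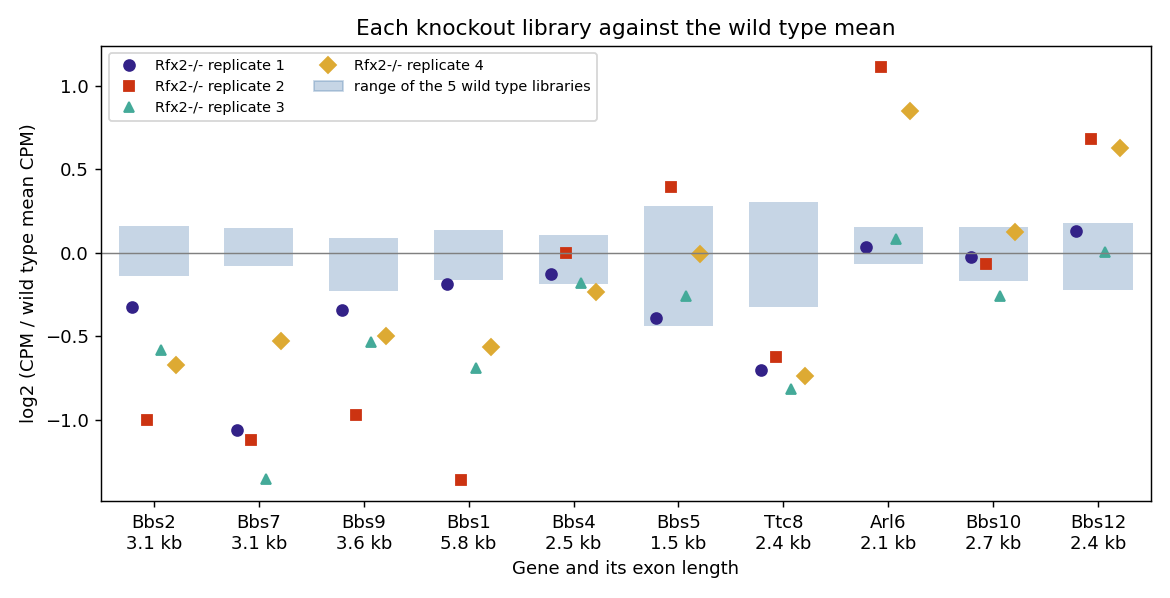
Log2 ratio of each Rfx2-/- library to the WT mean CPM (y axis) for the 10 genes (x axis, with exon length), 1 marker per knockout library, and the range of the 5 WT libraries as a shaded box. All 4 markers lie below the box for Bbs2, Bbs7, Bbs9, Bbs1 and Ttc8, replicate 2 (red squares) is the lowest marker in 3 genes and the highest in 5, and Arl6 and Bbs12 have 2 libraries above the box and 2 within it.

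The order of the knockout libraries varied from gene to gene. Replicate 2 was the lowest of the knockout libraries for Bbs1, Bbs2 and Bbs9, whose exons measure 3.06 to 5.83 kb, and the highest for Bbs4, Bbs5, Ttc8, Arl6 and Bbs12, at 1.47 to 2.52 kb. For Bbs7 (3.11 kb) and Bbs10 (2.74 kb) it was neither, with replicate 3 the lowest and replicate 4 the highest. After removal of a trend with gene length from each library, 5 of the 10 genes were called lower, Bbs1 (log2 fold change -0.59, edgeR adjusted p = 0.0137) beside Bbs2, Bbs7, Bbs9 and Ttc8, and none was called higher. Calls over all genes rose as well in this fit, from 1142 to 1505 lower (9.64%) and from 544 to 808 higher (5.18%). The median log2 ratio of the 10 genes to the WT mean was -0.26, -0.35, -0.40 and -0.37 in Rfx2-/- replicates 1 to 4 and between -0.13 and 0.15 in the WT libraries. In replicate 2 this median lies between genes that differ widely, from -1.36 for Bbs1 to 1.11 for Arl6. The elongating spermatid markers, at 7730 CPM in WT replicate 3 and 12034 CPM or more in the other WT libraries, summed to 6003, 9316, 6859 and 6211 CPM in Rfx2-/- replicates 1 to 4. In WT replicate 3, the WT library with the lowest sum, Bbs7, Bbs2, Bbs9 and Ttc8 were at 84.1, 57.8, 95.1 and 23.4 CPM. For Bbs2, Bbs9 and Ttc8 these were the highest WT values. Of the 10 genes, 4 had their highest WT value in this library and 3, namely Bbs5, Arl6 and Bbs12, had their lowest. These are values of 1 library, and the part of the markers in the decrease of the 4 BBSome mRNAs was not tested. Without both WT replicate 3 and Rfx2-/- replicate 2, a choice made after seeing the data, 5 of the 10 genes were lower, the 4 and Bbs1, and none was higher, against 12.5% and 6.17% of all genes.

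The other genes of the pathway were read from lists written from general knowledge. Of 13 partners of the BBSome, 2 fell (Cep131 and Ift27), none rose and the median log2 fold change was 0.09. Of all genes, 7.31% were lower and 3.48% higher by this rule. The sign of the median of the 13 partners varied with the fit. It was 0.099 with DESeq2, -0.099 without Rfx2-/- replicate 2, -0.092 with limma voom and -0.023 after removal of the length trend. At an unadjusted p under 0.05, 4 were lower (13.7% of all genes) and none higher (13.9%), and DESeq2 and limma voom each called 4 lower (8.94% and 11.5% of all genes) and none higher. Cep131, a satellite protein that binds the BBSome and is needed for sperm flagella, was at 97.0 to 106 CPM in WT and 10.6 to 30.8 CPM in Rfx2-/- (log2 fold change -2.24, SE 0.248, edgeR adjusted p = 7.27e-05), or 21.1% of the WT level. Ift27, a small GTPase of the IFT-B complex through which the BBSome leaves the cilium, was at 25.8 to 29.1 CPM in WT and 11.8 to 16.5 CPM in Rfx2-/- (log2 fold change -0.93, SE 0.138, edgeR adjusted p = 0.000822). Both groups were far apart for both genes.

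Bbip1, Lztfl1 and Mkks were not called. Bbip1, the smallest BBSome subunit, was at 66.9 to 80.0 CPM in WT and 62.4, 129, 67.4 and 88.8 CPM in Rfx2-/- (log2 fold change 0.20, 95% interval -0.23 to 0.64, edgeR adjusted p = 0.527). Lztfl1, which restrains entry of the BBSome into cilia, was at 87.6 to 110 CPM in WT and 87.5, 150, 79.1 and 108 CPM in Rfx2-/- (log2 fold change 0.13, edgeR adjusted p = 0.678). Mkks, the third chaperonin-like BBS protein, was at 9.19 to 10.6 CPM in WT and 10.4, 21.8, 9.60 and 12.3 CPM in Rfx2-/- (log2 fold change 0.44, edgeR adjusted p = 0.227). In all of them replicate 2 was the highest library of either group and replicate 4 the second of the knockout libraries, as for Arl6 and Bbs12. None of the 9 CCT chaperonin genes was called by edgeR, DESeq2 or limma voom, with a median log2 fold change of 0.05 and 1 gene higher at an unadjusted p under 0.05. None of 6 tested of 7 listed other Bardet-Biedl disease genes was called by edgeR (median -0.07, 1 lower and 2 higher at an unadjusted p under 0.05), and DESeq2 and limma voom each called 1 lower, Sdccag8. Beside these, 3 of 18 IFT-B genes, Ift27 among them, were lower and 2 higher (median -0.15), and 0 of 6 IFT-A genes were called by edgeR (median -0.48, 2 lower at an unadjusted p under 0.05), where DESeq2 called 1 and limma voom 2 lower. For all of these lists, the shares over all genes by edgeR were 7.31% lower and 3.48% higher. They were 13.7% and 13.9% at an unadjusted p under 0.05. DESeq2 called 8.94% and limma voom 11.5% of all genes lower.

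**Figure D4:**
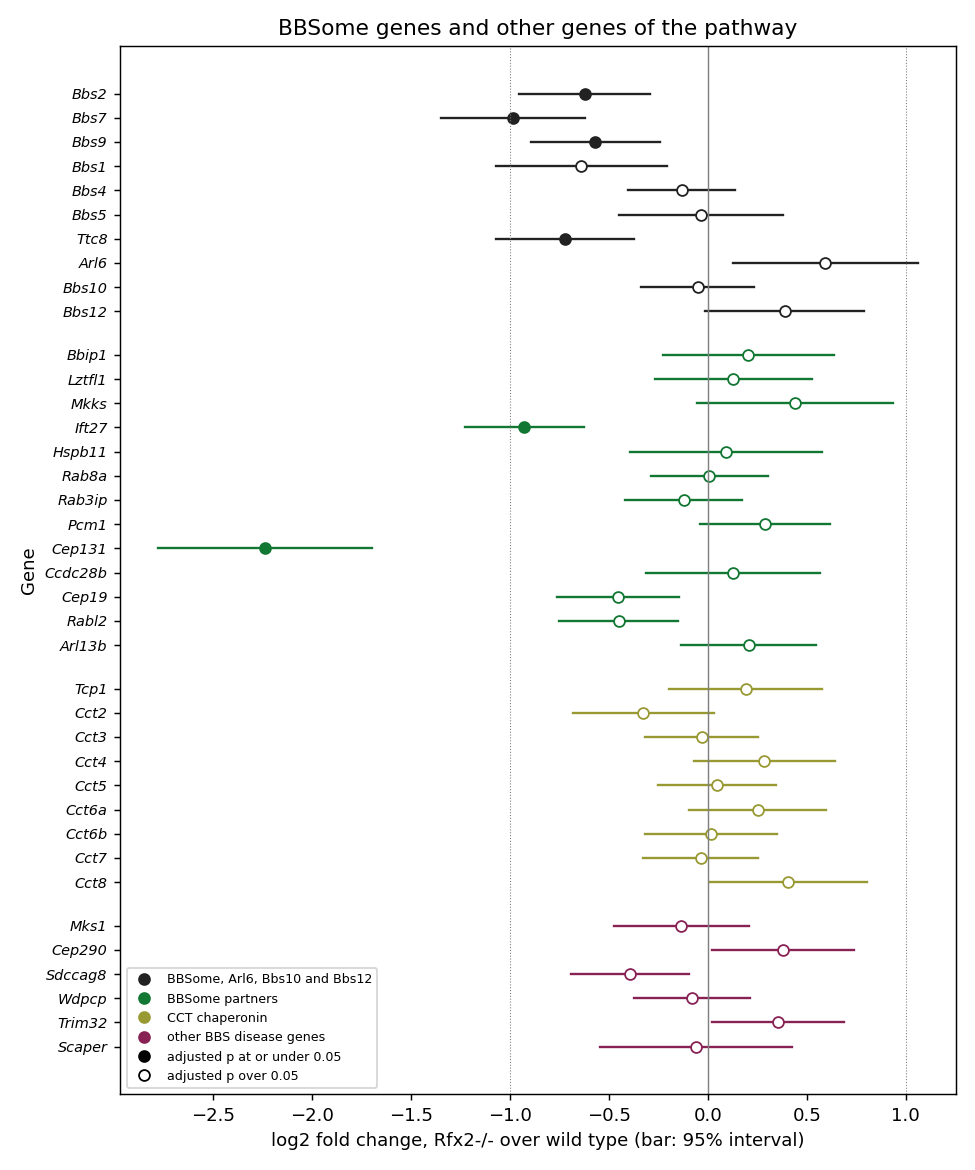
Log2 fold change of Rfx2-/- over WT (x axis) with 95% intervals for the 10 genes and for the other genes of the pathway, grouped by color, filled where the edgeR adjusted p was at or under 0.05. Filled markers are Bbs2, Bbs7, Bbs9, Ttc8, Ift27 and Cep131, the last at -2.24, and the CCT genes lie around 0.

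The RFX genes known from testis differed in the same comparison. Rfx3 was at 39.5 to 58.9 CPM in WT and 19.0, 10.4, 19.8 and 13.7 CPM in Rfx2-/- (log2 fold change -1.70, SE 0.206, edgeR adjusted p = 0.000152), with no overlap. Rfx1 was at 125 to 189 CPM in WT and 142, 29.5, 114 and 116 CPM in Rfx2-/-, where replicate 2 was far below the rest, and did not pass the test (log2 fold change -0.72, edgeR adjusted p = 0.194). The BBSome mRNAs were therefore measured in tissue with less Rfx3 as well as less Rfx2 mRNA, and the part of either in these values was not tested.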

How the data were processed

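Total RNA of decapsulated testes of 5 WT and 4 Rfx2-/- mice was made into TruSeq libraries, 1 per mouse. The table deposited by the authors holds raw read counts per Ensembl gene. By their methods, single reads were mapped to GRCm38 with STAR, reads with several positions were discarded, and featureCounts summed reads over merged exons of coding isoforms, leaving out those shared by exons of different genes. Another read length and aligner appear in the same methods, and use of strand is not stated. The submitters' processing notes list CASAVA 1.8.2, STAR 2.4 and featureCounts 1.4.6.

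Groups were taken from the genotype label, and replicate numbers follow the order of deposition. Names and exon lengths came from GENCODE M21, which held 96.6% of the IDs. Counts were fitted with edgeR 4.0.16 in R 4.3.3 (TMM, filterByExpr, robust glmQLFit, glmQLFTest), with Benjamini-Hochberg adjustment over 15613 genes and a call at an adjusted p of 0.05. Alternatives were total-count scaling, no filter, DESeq2 1.42.0, limma 3.58.1 voom with quality weights, removal of a length trend, thinning of the deepest library, leaving out each library, and a 2-fold limit with an adjusted p of 0.01. The fit was tested on data simulated with the same dispersion in both groups, which does not cover the wider spread among Rfx2-/- libraries. Floors (3 counts) cover counting error only. Pairs of libraries of a genotype differed by a chi-square of 4.32 per gene or more, so each was kept as a replicate. The P21 peak list came from the supplementary tables of the study.

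The genes named are the 10 chosen, the called genes of the lists of BBSome partners, CCT and other disease genes, Bbip1, Mkks and Lztfl1, and Rfx1, Rfx2 and Rfx3. Sdccag8, Sycp2, Dpy19l2, Prm1, Prm2, Tnp1, Akap4, Adpgk and Cetn4, which are outside this rule, were named after their values were seen. The members, lists and tests were chosen with earlier results of these data known. The result of 1 gene of the pathway lists is not reported here.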

Additional observations from a re-analysis of the deposited data

Results flagged for a closer look

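One value among the members was outlying within its group. The level of Bbs9 in WT replicate 1 was 76.5 CPM, against 90.0 to 95.1 CPM in the other 4 WT libraries, a gap of 0.727 of the range of the group where 0.71 is the 95% limit for 5 samples. The 10 genes give 20 groups of libraries, of which about 1 is outlying by chance, and 1 was found. Rfx2-/- replicate 1, at 70.7 CPM, lies below this value.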

How the results depend on the processing

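Bbs7 was called lower at an adjusted p of 0.05 in all 16 other fits, but is not over 2-fold in the main one. The count of members lower, 4, was 5 with DESeq2, limma voom, removal of the length trend and, chosen after seeing the data, without WT replicate 3 and Rfx2-/- replicate 2 (Bbs1 added in each). It was 2 under total counts (Bbs7 and Ttc8), 0 over 2-fold at an adjusted p of 0.01, and 1 to 5 with single libraries left out, namely Bbs7 alone without Rfx2-/- replicate 3 or 4, Bbs7 and Ttc8 without WT replicate 3 or 4, Bbs2, Bbs7 and Ttc8 without WT replicate 2 or 5, and 5 without Rfx2-/- replicate 1 or 2. Members higher, 0, were 1 (Arl6) under total counts and 0 to 1 with single libraries left out, 1 without Rfx2-/- replicate 1 or 3. All genes lower, 1142, were 1803 with limma voom, 1965 in the added alternative, 575 over 2-fold and 850 to 1539 with single libraries left out, and all genes higher, 544, were 1178 under total counts, 910 with DESeq2, 949 with limma voom, 966 in the added alternative, 129 over 2-fold and 276 to 1393 with single libraries left out (303, 283, 310 and 276 without WT replicates 1, 2, 4 and 5, and 1393 without Rfx2-/- replicate 1). Bbs4, Bbs5 and Bbs10, none of them called, turned positive under total counts (0.0028, 0.11 and 0.079), Bbs5 also without WT replicates 4 and 5 and Rfx2-/- replicates 1 and 3 (0.0023, 0.04, 0.10 and 0.07), and Bbs10 without Rfx2-/- replicate 3 (0.046), within ranges of -0.30 to 0.10 for Bbs5 and -0.091 to 0.046 for Bbs10 over the fits without libraries. Where libraries are left out, fewer samples enter the fit; otherwise the cause was not tested. No paired analysis was possible because the labels number the animals individually and do not give their litters. The study's methods say that littermates of the same age were used where possible. Depth limits Bbs12 most, at 93 to 112 counts in the WT libraries.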
